A study of Spirodela polyrhiza and Pistia stratiotes and Colocasia esculenta with 79 samples.

Results

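The lower part of the leaf of Pistia stratiotes was compared with its tip. Water lettuce, as the plant is called, is a free-floating member of the arum family whose leaves form a rosette on a short stem and whose daughter rosettes are borne on stolons. The comparison used the libraries labelled Basal (n = 4) and Apical (n = 4), which make up 8 of the 79 libraries of a study of 4 species that asked how the body plan of duckweeds relates to that of larger relatives. The 4 Petiole libraries, from the leaf stalk that adjoins the base, were set beside them, and the remaining Pistia libraries, Stem (n = 4) and Stolon (n = 4), shared the estimate of the spread. All 20 Pistia libraries came from untreated plants kept at 22 °C under fluorescent light, and were made from poly-A RNA and sequenced in pairs of 150 bp reads. The labels leave out the genotype, the age and position of the leaves, where the cuts lay and whether plants were pooled.

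A monocot leaf has a lower zone that forms sheath and stalk and an upper zone that forms the blade. In many monocots cells are added near the base of the leaf and mature towards the tip, so that base and tip can differ in age as well as in tissue. In water lettuce the lower part of the leaf is also thick and rich in air spaces, and the veins converge there before they pass into the stalk. These statements are background. The table of expression values names transcripts only by identifiers such as Pis17636.t1, where the part before the point stands for a gene and the part after it for one of its transcripts, so no function, sequence or marker of a tissue is attached to any of them here. The labels of the regions were for that reason not checked against marker genes.

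Values are TPM, a transcript's relative abundance per library, which are corrected for transcript length and scaled to a common total in each library. Differences between regions are differences of log2(TPM + 1) and understate the fold of transcripts at low TPM. Read depth is unknown, so no counting error can be given. The spread is that between libraries labelled as biological replicates, and the labels do not say whether these were separate plants or cultures. These are bulk samples, in which fewer cells of a type and less RNA per cell cannot be told apart.

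Apical replicate 4 stood apart from the other libraries. Its mean Pearson correlation with the other Apical libraries was 0.888, while those of Apical replicates 1 to 3 were between 0.929 and 0.936 and those of the Basal libraries between 0.955 and 0.963. Its 10 most abundant transcripts held 11.9% of the TPM, against 16.2% to 16.9% in the other Apical libraries. The median SD between replicates over all tested transcripts was 0.45 on the log2 scale in Apical and 0.26 in Basal, and 0.26 in Apical without replicate 4. The main counts of calls between base and tip are given with and without it. The differences given for single transcripts include it.

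Few transcripts were called different between leaf base and leaf tip. With the spread taken from all regions, nearly all of these were higher in the base. With all 20 Pistia libraries in a limma fit, 230 of 18727 tested transcripts (1.23%) were called at an adjusted p under 0.05. Of these, 223 (1.19%) were higher and 7 (0.0374%) lower in Basal. At an unadjusted limma p under 0.05, 1559 transcripts were higher and 888 lower, and this split depended on single libraries. It was 1109 higher and 301 lower without Apical replicate 4, 1128 and 469 without Basal replicate 1, and 1961 and 2215, with more lower than higher, without Apical replicate 3. Over all tested transcripts the median difference was -0.01, so base and tip were centred on each other.

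The number of calls depended strongly on which libraries estimated the spread. When the spread was taken from Apical and Basal alone, 1203 of the 18727 tested transcripts were at an unadjusted limma p under 0.05. Chance alone gives about 1 in 20. In that fit limma called 1 transcript. That transcript, Pis07060.t2, named after its values were seen, was at 0.739, 0.672, 0.571 and 0.502 TPM in Apical and listed at 0 in all 4 Basal libraries. The gene's other transcript, Pis07060.t1, was listed at exactly the same 4 values in Apical, but at 2.17, 2.68, 2.36 and 1.45 TPM in Basal. Neither was called when all regions were fitted. With Apical, Basal and Petiole in the fit, 50 were called, 47 of them higher. Leaving out Apical replicate 4 gave 181 calls in the fit of all regions, 40 in that of the 3 regions, 36 of them higher, and 7 in that of the compared regions alone, of which 1 was higher and 6 lower. The preponderance of higher calls was thus not seen when Apical and Basal alone gave the spread. Of the Basal libraries, leaving out replicate 1 gave 134 calls, replicate 4 gave 152 and replicate 3 gave 367. With single libraries left out, lower calls ranged from 4 without Basal replicate 1 to 24 without Apical replicate 3, beside 130 and 244 higher. Below, "called" refers to the fit of all 20 libraries, whose spread rests on more libraries of the other regions than of Apical and Basal. The median SD between replicates was 0.264 in Petiole, 0.200 in Stem and 0.225 in Stolon, all lower than the 0.45 in Apical. Each SE and adjusted p given for a single transcript rests on a spread shared in this way.

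**Figure D1:**
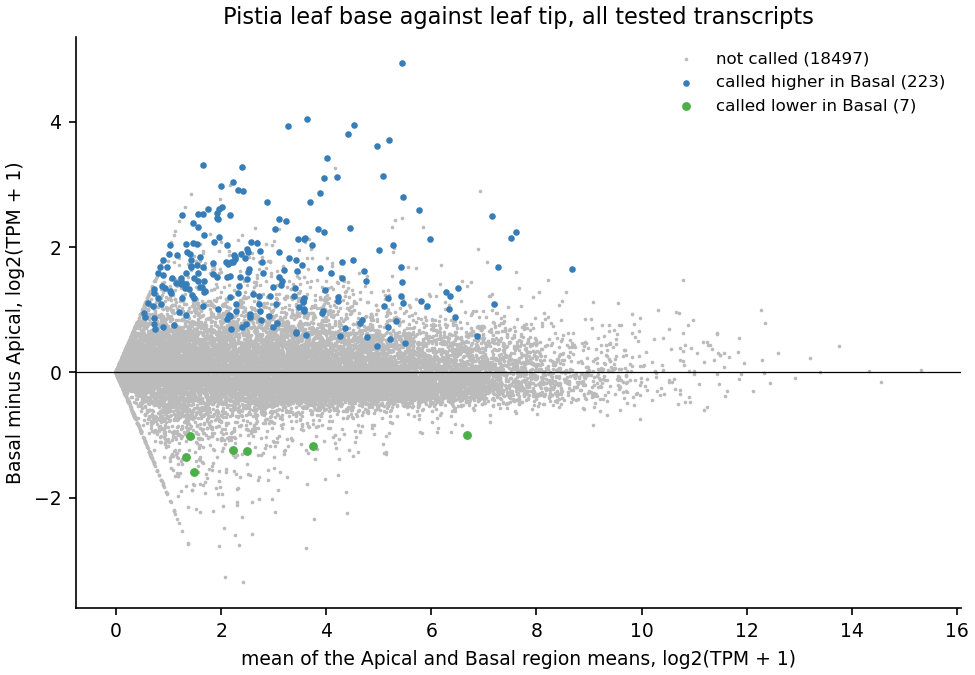
Difference between the Basal and Apical means of log2(TPM + 1) for every tested transcript (vertical axis) against the mean of both regions (horizontal axis, log2 scale). The 223 transcripts called higher in Basal spread over low and high levels up to a difference of 4.94, and the 7 called lower lie between -1.59 and -0.99, with many uncalled transcripts further down.

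The replicates were well separated for most of the raised transcripts. For 191 of the 223, all 4 Basal libraries lay above all 4 Apical libraries, while for 32 the groups overlapped. Over all tested transcripts 586 (3.13%) had every Basal library above every Apical library, and 227 (1.21%) had every Basal library below. A call and a separation use the same libraries, so neither supports the other. The rise was by a median of 1.52 on the log2 scale, with quartiles of 1.12 and 2.04, and 59 of the 223 rose by 2 or more. Of the 223, 111 had a Basal mean under 10 TPM, and 21 had 100 TPM or more.

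The 16 transcripts most raised in the base, among those with a Basal mean of at least 10 TPM and no overlap with Apical, are given by library, since the spread between Basal libraries was wide. Pis17636.t1 stood at 26.8, 9.73, 7.58 and 0.441 TPM in Apical replicates 1 to 4 and at 614, 303, 117 and 149 TPM in Basal replicates 1 to 4. Every Basal library thus exceeded every Apical one, with Basal replicate 1 at more than the level of any other library of either region. The log2 difference was 4.94 (SE 0.65, limma adjusted p = 0.00053). In the petiole the transcript measured 520.0, 589.5, 266 and 673 TPM. Base and petiole overlapped for this transcript, and their difference of 1.02 (SE 0.65) did not pass (limma adjusted p = 0.22). It was the only 1 of the 16 most raised transcripts for which that was so.

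Pis16854.t1 was at 4.45, 5.64, 1.37 and 0 TPM in Apical and at 89.2, 74.2, 17.1 and 49.9 TPM in Basal. It rose by 4.04 on the log2 scale (SE 0.52, limma adjusted p = 0.00043). The petiole held 772, 918, 356 and 528 TPM, with no overlap between any of the 3 regions. Pis17806.t1 followed the same order, at 16.4, 2.09, 3.71 and 3.58 TPM in Apical and 186, 97.8, 42.0 and 82.6 TPM in Basal. Its petiole level was 1358 ± 334 TPM (SD, n = 4), or 13.3 times the Basal mean of 102 ± 60.5 (n = 4).

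Pis15046.t1 was at 7.68 and 3.21 TPM in Apical replicates 1 and 2 and listed at 0 in replicates 3 and 4, against 64.8, 52.2, 14.0 and 37.6 TPM in Basal. Its level was highest in the stalk and similar in base, stem and stolon: the petiole mean was 398 ± 135 TPM, and the stem and stolon means were 46.2 ± 20.6 and 45.2 ± 22.4 TPM (SD, n = 4 each). Pis04460.t1 was likewise highest in the stalk. It measured 4.05, 7.90, 7.07 and 1.91 TPM in Apical and 247, 86.1, 35.5 and 50.9 TPM in Basal, and averaged 460.5 ± 133 TPM in the petiole, 36.8 ± 13.3 in the stem and 73.7 ± 39.7 in the stolon (SD, n = 4 each).

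The transcripts with the highest petiole levels among the most raised were Pis03161.t1 and Pis05073.t1. Pis03161.t1 averaged 11.8 ± 10.1 TPM in Apical, 143 ± 61.6 in Basal and 2803 ± 552 in Petiole (SD, n = 4 each), a rise of 3.71 from tip to base (SE 0.42, limma adjusted p = 9.3e-05) and of 4.38 from base to stalk. For Pis05073.t1 the means were 8.92 ± 5.77, 112 ± 36.1 and 2045 ± 574 TPM, with a rise from tip to base of 3.61 (SE 0.30, limma adjusted p = 1.0e-05). Its Basal libraries lay close together, at 146, 139.9, 87.2 and 75.2 TPM.

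Some of the most raised transcripts were all but undetected in the tip. Pis15721.t1 was listed at 0 in all 4 Apical libraries, as were 6 of the 223 raised transcripts in all, and measured 16.5, 12.5, 7.02 and 4.07 TPM in Basal and 283, 446, 348 and 253 TPM in Petiole. Pis03836.t1 was low in each Apical library, at 1.38, 0.579, 0.765 and 0.0844 TPM, against 23.7, 13.9, 6.81 and 10.3 TPM in Basal. Pis13587.t1 was listed at 0 in Apical replicates 3 and 4 and Pis03257.t1 in replicates 2 to 4. Pis13587.t1 measured 28.9, 25.8, 5.74 and 11.99 TPM in Basal, and Pis03257.t1 24.2, 8.63, 4.15 and 11.3 TPM. Their petiole means were 370.4 ± 145 and 624 ± 382 TPM (SD, n = 4 each). Pis16363.t1 was the least petiole-weighted of these low transcripts, at 0.959 ± 0.814 TPM in Apical and 62.1 ± 20.2 in Petiole (SD, n = 4 each), and at 31.3, 21.7, 2.70 and 12.15 TPM in the Basal libraries.

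The 4 other most raised transcripts were Pis15050.t1, Pis10058.t1, Pis11315.t1 and Pis06011.t1. They rose from Apical means of 5.03, 16.6, 7.08 and 6.23 TPM to Basal means of 60.1, 115, 62.3 and 47.0 TPM. For Pis10058.t1 the tip was split, with Apical replicates 1 to 3 at 20.7, 22.5 and 22.9 TPM and replicate 4 at 0.404 TPM, and its call was lost without Basal replicate 1 or 2. The other 15 of the 16 kept their call when any single Apical or Basal library was left out, and none of the 16 was called in the fit of Apical and Basal alone.

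**Figure D2:**
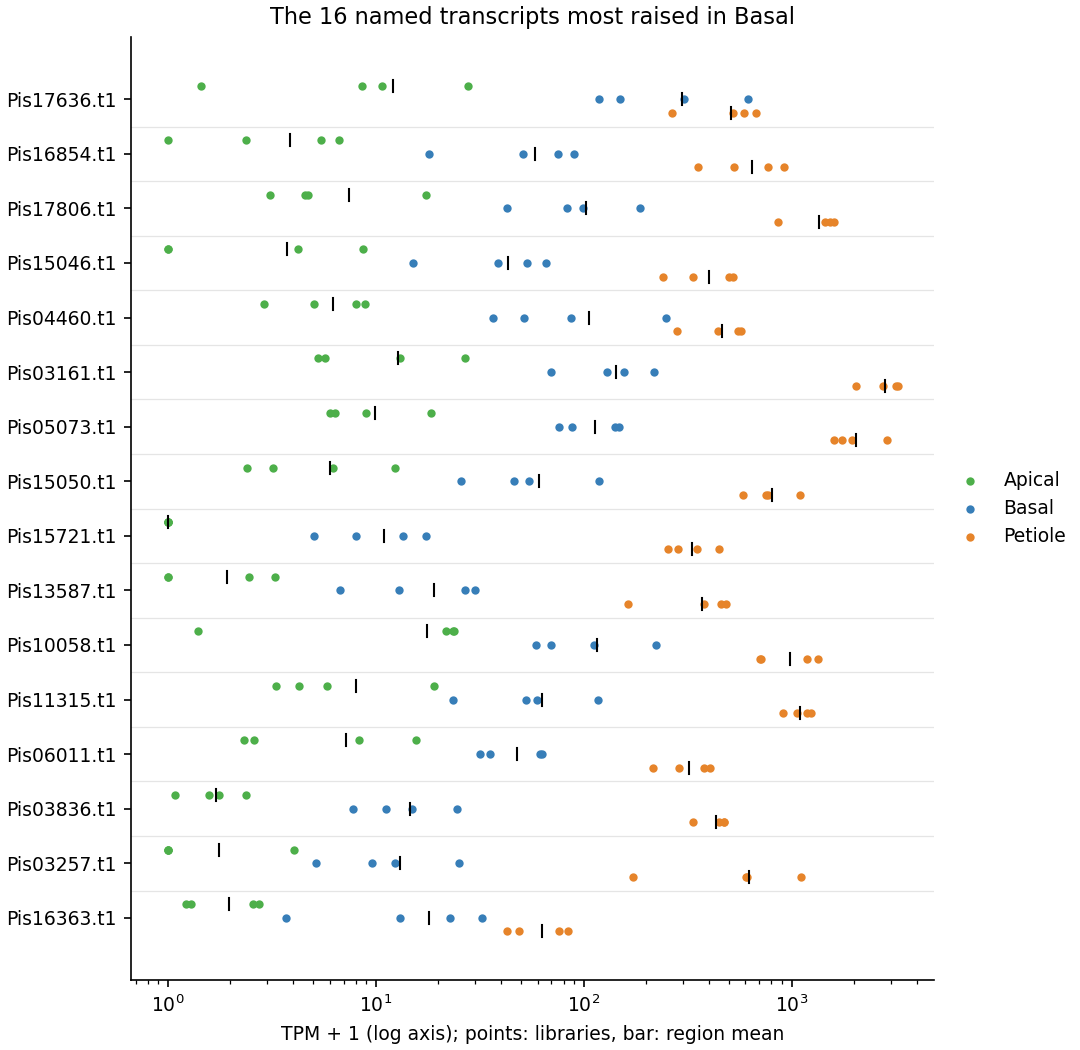
TPM + 1 on a log axis for the 16 named transcripts most raised in Basal (rows), with the 4 Apical, 4 Basal and 4 Petiole libraries as points and each region's mean as a bar. Basal lies above Apical in every row, and Petiole lies wholly above Basal in 15 of the 16, the exception being Pis17636.t1.

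Of the 5 raised transcripts most abundant in the base, Pis17636.t1, described above, had the lowest mean in the tip. The others were already present there at higher mean levels. Pis19837.t1 was at 265, 373, 241 and 119.9 TPM in Apical and at 859, 838, 492 and 785 TPM in Basal, a rise of 1.65 (SE 0.26, limma adjusted p = 0.0020) with no overlap. Pis08874.t1 averaged 103 ± 51.5 TPM in Apical and 464 ± 244 in Basal, and reached 4383 ± 1042 in Petiole and 6636 ± 1435 in Stolon (SD, n = 4 each). Pis11318.t1 went from 69.9 ± 39.2 to 355 ± 145 TPM and peaked in the petiole at 2309.9 ± 195. Pis14330.t1 was at 209.9, 137, 58.7 and 32.6 TPM in Apical and 524, 525, 167 and 481 TPM in Basal, so that Basal replicate 3 lay within the Apical range. Its call was lost without Basal replicate 1, 2 or 4.

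To place the petiole, its libraries were set against the Basal ones for the same transcripts. This contrast shares the Basal libraries with the one that chose the transcripts, and transcripts chosen for a high Basal level are the more likely to be lower elsewhere, so the counts are a description. Over all 18727 tested transcripts 45.4% were called, 34.9% higher and 10.5% lower in Petiole than in Basal. Among the 223 raised transcripts 211, or 94.6%, were called higher in Petiole, 2 were called lower and 10 were not called. The median difference of Petiole over Basal was 2.78 for the raised transcripts and 0.34 for all tested. Median-of-ratios rescaling, which corrects for a few abundant transcripts taking a large share, moved the median over all transcripts to 0.08 and the split of all calls from 6541 higher and 1960 lower to 4390 higher and 3189 lower. With that rescaling 205 of the raised transcripts were still called higher in Petiole, at a median of 2.44.

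**Figure D3:**
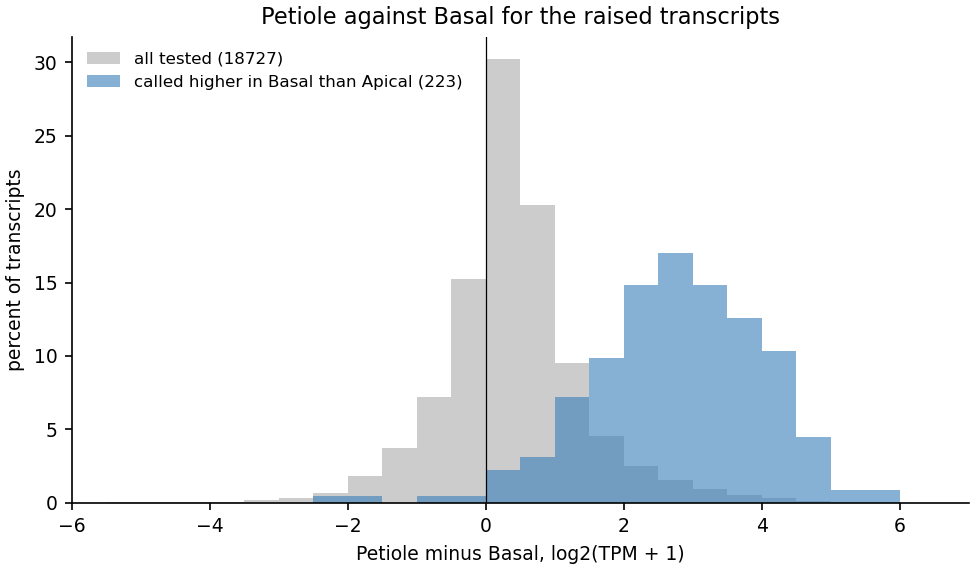
Histogram of the difference between the Petiole and Basal means of log2(TPM + 1), as percent of the 18727 tested transcripts (grey) and of the 223 called higher in Basal than Apical (blue). The raised transcripts centre on 2.78 and all tested ones on 0.34, and 4 raised transcripts have a Petiole mean at or below the Basal mean.

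For the raised transcripts the base stood between tip and stalk, and in TPM nearer to the tip. The median of the raised transcripts' mean levels was 2.52 TPM in Apical, 10.003 TPM in Basal and 79.6 TPM in Petiole, while over all tested transcripts the medians were 9.51, 9.21 and 13.0 TPM. Together the raised transcripts made up 0.142% to 0.306% of the TPM in the Apical libraries, 0.511% to 1.11% in Basal and 4.57% to 6.25% in Petiole. No Petiole library overlapped with Basal or Apical in that share. Basal and Apical did not overlap either, but the transcripts were chosen for being higher in these same Basal libraries than in Apical. For the 219 transcripts with a Petiole mean above the Basal mean, the excess of Basal over Apical in TPM was a median of 9.48% of the excess of Petiole over Apical, with quartiles of 5.72% and 15.96% and a range from 1.48% to 92.0%. That fraction thus differed widely between transcripts. It was 56.8% for Pis17636.t1, 26.2% for Pis16363.t1 and 21.9% for Pis04460.t1, but 3.02% for Pis03836.t1 and 1.82% for Pis03257.t1. At the low end was Pis13226.t2, at 0.678 ± 0.573 TPM in Apical, 5.15 ± 3.60 in Basal and 303 ± 135 in Petiole (SD, n = 4 each). Pis01682.t1 was similar in kind, at 0.373 ± 0.431, 8.94 ± 10.9 and 243 ± 109 TPM, with 25.02 TPM in Basal replicate 1 and at most 5.69 TPM in the other Basal libraries. The calls of Pis13226.t2 and Pis01682.t1 between base and tip were lost without Apical replicate 3 or 4, without Basal replicate 1 or 4 and, for Pis13226.t2, also without Apical replicate 2 or Basal replicate 2. Pis13226.t1, from the same gene as Pis13226.t2, was tested and not called between base and tip.

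Stem and stolon also carried the raised transcripts at higher median levels than the leaf base. Among the 5 regions the mean was highest in Stolon for 123 of the 223 (55.2%, against 18.1% of all tested transcripts), in Petiole for 61 (27.4% against 12.4%), in Stem for 36 (16.1% against 43.5%) and in Basal for 3 (1.35% against 7.38%). The median level of the raised transcripts per library was 93.9 to 105 TPM in Stolon and 42.1 to 49.2 TPM in Stem. Pis16854.t1, for example, averaged 1038 ± 189 TPM in Stolon and 257 ± 58.0 in Stem (SD, n = 4 each). Pis15046.t1, Pis04460.t1, Pis03161.t1 and Pis11318.t1 instead had their highest mean in the petiole.

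The Basal libraries differed in how far they departed from the tip. Over the raised transcripts the median level was 15.0 TPM in Basal replicate 1, 8.97 in replicate 2, 6.51 in replicate 3 and 10.3 in replicate 4, and between 1.45 and 3.11 TPM in the Apical libraries. Basal replicate 1 was the highest Basal library for 160 of the 223 transcripts, and replicate 3 the lowest for 146. Among the 16 most raised these numbers were 15 and 13. In the tip, Apical replicate 1 was the highest for 133 and replicate 4 the lowest for 112.

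Transcripts of the petiole were also highest in Basal replicate 1 and lowest in replicate 3. A list of 109 transcripts with a Petiole mean of at least 20 TPM and under 1 TPM in each Apical library, chosen after the values were seen, summed to 14.3 to 35.3 TPM in Apical, 4126.5 to 7720 in Petiole and 375, 203, 95.4 and 189 TPM in Basal replicates 1 to 4. Its members' Basal means were a median of 3.40% of their Petiole means, with quartiles of 2.25% and 5.03% and a highest value of 17.6%, and 3 were listed at 0 in all Basal libraries. Of the 109, 24 were called higher in Basal than Apical, or 22.0% beside 1.19% of all tested, and 0 lower. The list was chosen for low Apical values, which favours that direction, and those 24 are themselves among the 223. A second list chosen after the values were seen, 8 transcripts with an Apical mean of at least 20 TPM and under 1 TPM in each Petiole library, summed to 298, 200.3, 425 and 266 TPM in Basal replicates 1 to 4. In the Apical libraries it summed to 339, 262, 447 and 401 TPM, and in Petiole to 1.63 to 2.35 TPM. Base and tip overlapped in that sum, Basal replicate 3 was the highest Basal library, the members' Basal means were a median of 88.2% of their Apical means, and 0 of the 8 were called by limma. Whether tissue of the stalk was included in the Basal pieces, and its part in the rise of the other transcripts, was not tested.

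**Figure D4:**
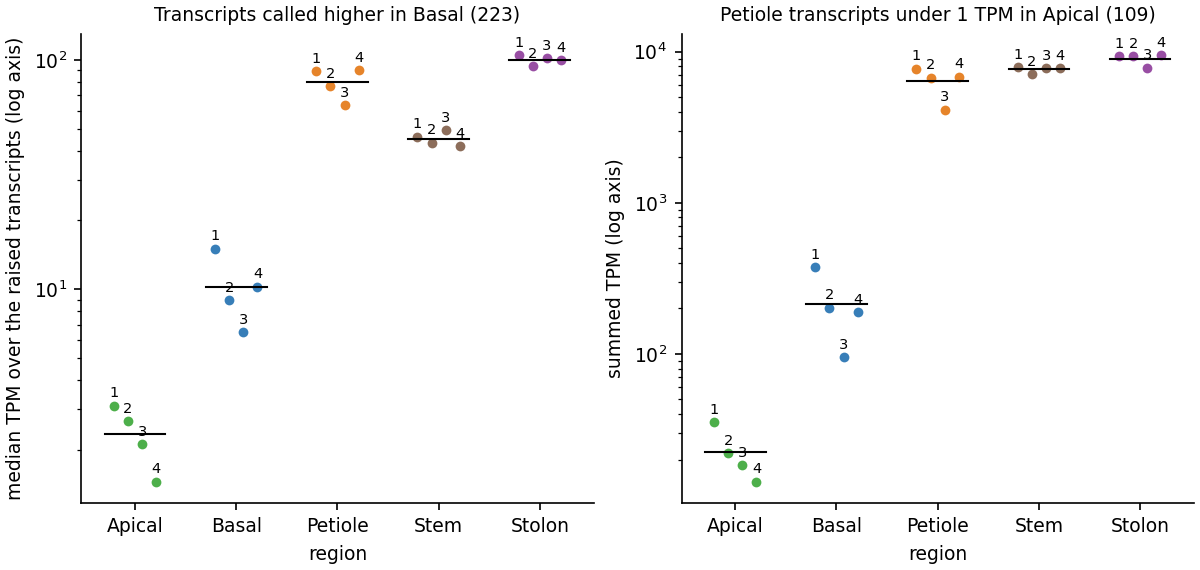
Left, median TPM over the 223 transcripts called higher in Basal, and right, summed TPM of the 109 petiole transcripts under 1 TPM in Apical, both on log axes, for each Pistia library (points, labelled by replicate) with region means as bars. In both plots the Basal libraries lie between Apical and Petiole, with replicate 1 highest and replicate 3 lowest. Both lists were chosen in ways that favour Basal above Apical, and 24 transcripts are in both.

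For 3 raised transcripts, Pis11683.t1, Pis06196.t1 and Pis00050.t1, the leaf base had the highest mean of the 5 regions. The 4 whose Petiole mean did not exceed the Basal mean were singled out after their values were seen. Pis11683.t1 was at 2.24, 0.814, 0.404 and 4.23 TPM in Apical and at 10.1, 8.69, 3.74 and 11.9 TPM in Basal, with Basal replicate 3 within the Apical range. In the petiole it fell to 0.284, 0.471, 1.25 and 1.58 TPM, below every Basal library, and its stem and stolon means were 0.319 and 0.470 TPM. The rise from tip to base was 1.81 (SE 0.37, limma adjusted p = 0.014), lost without Basal replicate 1 or 4, and the difference of Petiole from Basal was -2.31 (SE 0.37, limma adjusted p = 4.9e-05).

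Pis06196.t1 was listed at 0 in all Apical and all Stolon libraries, and was at 2.12, 4.93, 16.2 and 2.39 TPM in Basal and 0, 2.09, 0 and 2.67 TPM in Petiole. Its mean was carried by Basal replicate 3, and its call against Apical was lost when Basal replicate 2 or 3 or any 1 Apical library was left out. The call of its fall from base to petiole was lost without Basal replicate 2 or 3 or Petiole replicate 1 or 3. Pis00050.t1 was likewise listed at 0 in Apical, and averaged 2.73 ± 1.76 TPM in Basal and 1.46 ± 1.41 in Petiole (SD, n = 4 each). Pis18915.t1 averaged 2.58 ± 1.20, 5.91 ± 1.39 and 5.16 ± 1.28 TPM in the same order. For Pis00050.t1 and Pis18915.t1 base and petiole overlapped and were not called different, although without Petiole replicate 3 Pis00050.t1 was called lower in the petiole (limma adjusted p = 0.044). Another transcript of the same gene as Pis00050.t1, Pis00050.t2, was not called between base and tip. Its mean over both regions was 6.26 on the log2 scale, against 0.90 for Pis00050.t1, and its difference between them was -0.23.

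Of the 7 transcripts called lower in the base, 4 were called lower again in the petiole than in the base, 2 higher, and 1 not different. Pis07475.t1, the most abundant of them, was at 162, 116, 127 and 182 TPM in Apical and at 89.1, 51.2, 79.9 and 74.0 TPM in Basal, and fell by 0.99 on the log2 scale (SE 0.21, limma adjusted p = 0.023). It went down further in the stalk, to 1.49 ± 0.423 TPM (SD, n = 4), and was at 0.278 TPM on average in the stolon. Pis00885.t1 was listed at 0 in every Petiole, Stem and Stolon library, and was at 10.7, 9.25, 8.44 and 3.98 TPM in Apical and 2.55, 1.46, 4.15 and 2.83 TPM in Basal. The lowest Apical library, replicate 4, lay within the Basal range.

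Pis01143.t1, Pis00389.t1 and Pis18799.t1 were at low levels in both parts of the leaf. Pis01143.t1 measured 4.20, 5.07, 2.63 and 3.86 TPM in Apical and 0.658, 0.630, 0.248 and 1.02 TPM in Basal, and in the petiole was above 0 in replicate 2 alone, at 0.0554 TPM. Its fall of 1.59 (SE 0.17, limma adjusted p = 5.2e-05) was the largest of the 7. Pis00389.t1 averaged 3.17 ± 1.18 TPM in Apical and 0.682 ± 0.754 in Basal, and Pis18799.t1 3.05 ± 1.96 and 0.924 ± 0.522 (SD, n = 4 each). For both, no Basal library reached the lowest Apical one. Pis00389.t1 averaged 0.0837 ± 0.0615 TPM in Petiole and its difference from Basal did not pass (limma adjusted p = 0.070), while Pis18799.t1 fell further, to 0.0281 ± 0.0341 TPM (limma adjusted p = 0.0067, SD over n = 4 each).

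The remaining pair stood higher in the petiole than in the base. Pis14241.t1 was at 20.3, 15.5, 18.8 and 23.5 TPM in Apical and 9.02, 9.97, 7.56 and 5.93 TPM in Basal, yet stood at 15.9 ± 3.94 TPM in Petiole and 18.1 ± 2.93 in Stem (SD, n = 4 each), so that the leaf base was lower than both its neighbours. Petiole exceeded Basal by 0.88 (SE 0.26, limma adjusted p = 0.0088), a call lost after rescaling. Pis09506.t2 was at 8.12, 5.45, 4.67 and 7.12 TPM in Apical, 2.26, 1.95, 2.37 and 1.71 TPM in Basal and 5.84, 5.22, 7.71 and 2.51 TPM in Petiole. The other listed transcript of that gene, Pis09506.t1, was at 0, 2.33, 2.77 and 5.91 TPM in Apical and at 5.03, 4.72, 5.34 and 5.05 TPM in Basal, and its difference between the regions did not pass (limma adjusted p = 0.47). In Basal t1 was above t2 in every library, and in Apical below it in every library. Of the 7 falls, those of Pis07475.t1, Pis18799.t1, Pis14241.t1 and Pis09506.t2 were each lost when certain single libraries were left out, Apical replicates 1 and 4 in every case, while those of Pis01143.t1, Pis00389.t1 and Pis00885.t1 were kept.

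Falls of larger size were not called. Of the 33 tested transcripts with a difference of -2 or lower, 0 were called, and for 32 of them the highest Apical library was replicate 4. Without that library 5 of the 33 remained at -2 or lower. Of the 88 with a difference of 2 or higher, 59 were called.

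**Figure D5:**
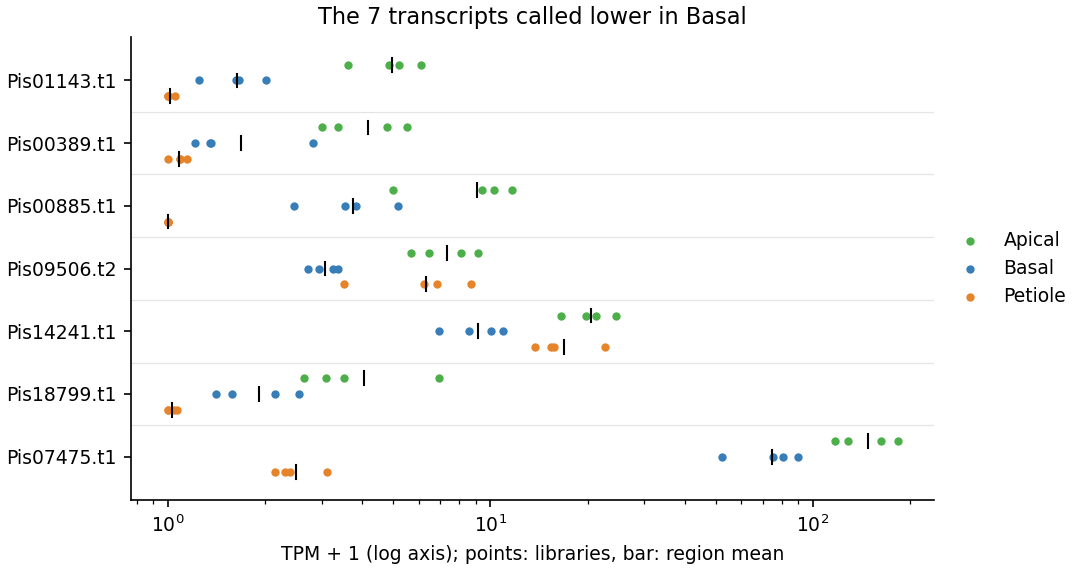
TPM + 1 on a log axis for the 7 transcripts called lower in Basal (rows), with the 4 Apical, 4 Basal and 4 Petiole libraries as points and region means as bars. For 5 of them Petiole lies lowest, while for Pis09506.t2 and Pis14241.t1 the Petiole mean lies above Basal.

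At the level of genes, the 223 raised transcripts came from 221 genes, 31 of which had more than 1 transcript in the table. From 2 genes, Pis00313 and Pis05873, 2 transcripts were raised. Pis00313.t4 averaged 4.99 ± 5.63 TPM in the tip and 21.9 ± 7.44 TPM in the base, for Pis00313.t1 the means were 2.41 ± 1.11 and 9.19 ± 2.98, and Pis05873.t9 from 1.29 ± 0.989 to 5.36 ± 1.55 and Pis05873.t6 from 0.674 ± 0.402 to 3.21 ± 0.844 (SD, n = 4 each). Pis00313.t2 and Pis00313.t5 were tested and not called. Their differences were 1.82 and 1.54 on the log2 scale, beside 2.42 for Pis00313.t4 and 1.60 for Pis00313.t1. Mean log2 levels over base and tip were 4.02 and 4.77 for the uncalled pair, and 3.24 and 2.50 for the called pair. Transcripts of 1 gene share sequence, so how reads were divided between them affects each value.

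The base also held slightly more transcripts at a level of 1 TPM or more. The number was 15080.5 ± 12.23 in Basal, ranging from 15064 to 15093, and 14717 ± 283 in Apical, ranging from 14327 to 15003 (SD, n = 4 each). The groups did not overlap, and the two-sided exact permutation p was 0.0286, the smallest that 4 against 4 libraries allow. Petiole libraries held 16161 to 16547. With a minimum of 5 TPM the difference between Basal and Apical was 150.0 transcripts, with an exact permutation p of 0.286, and without Apical replicate 4 the difference at 1 TPM was 233 instead of 363 transcripts.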

How the data were processed

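The deposited values are TPM. The submitters' processing notes name Salmon 1.10.0, while neither they nor the labels used here give the set of transcripts it searched or any filter the authors applied. RNA was extracted with a column kit and libraries had fragments of 370 to 420 bp, per the labels. TPM keeps no read depth, so the precision of single values is unknown. Pistia regions were compared with limma 3.58.1 in R 4.3.3 on log2(TPM + 1), with all 20 Pistia libraries, a mean-variance trend and no replicate block. Transcripts with at least 1 TPM in at least 4 Pistia libraries were tested, 18727 of 19647, and calls were made where p, adjusted by Benjamini-Hochberg over all tested transcripts, was below 0.05. Numbers of detected transcripts were compared by a two-sided exact permutation test. No table pairs the identifiers with gene names here, so marker genes of leaf tissues were not tested.

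Named transcripts were the 16 with the largest rise among those called with a Basal mean of at least 10 TPM and no overlap, all called lower, the 5 most abundant raised ones, the 4 extreme in each direction in Petiole against Basal with 10 TPM in the higher region (none qualified on the lower side), and other transcripts of the same genes. Alternatives were another pseudocount, no filter, rescaling, a replicate block, fewer regions, no trend and leaving out each library. Members and rules were chosen with earlier results of these data known.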

Additional observations from a re-analysis of the deposited data

Results flagged for a closer look

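In groups of 4 libraries, a library was singled out when its gap to the nearest other was an unusually large fraction of the group's range (Dixon's criterion at the 95% level). Of 111 groups examined 9 were singled out, and chance alone gives about 1 in 20. Apical replicate 4 was singled out for its mean correlation with its own region (0.888, a gap of 0.863 of the range) and for the share of TPM in its 10 most abundant transcripts (11.9%, gap 0.858). It was also the low library for Pis10058.t1, at 0.404 TPM (gap 0.967). Basal replicate 3 was the low library for the abundant transcripts Pis19837.t1, at 492 TPM (gap 0.839), and Pis14330.t1, at 167 TPM (gap 0.923). Basal replicate 4 was the high one for Pis00389.t1, at 1.81 TPM (gap 0.866). Pis17806.t1 was low in Petiole replicate 3, at 864 TPM (gap 0.844). For Pis03257.t1 in Apical and Pis01143.t1 in Petiole a single library was above 0, at 3.06 and 0.0554 TPM, which gives a gap of 1.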

How the results depend on the processing

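The count of transcripts called between Basal and Apical, 230 in the fit of all regions, was 376 with a pseudocount of 0.1 TPM and 369 with library weights. It was 50 with only Apical, Basal and Petiole and 1 with only the compared regions. Leaving out 1 library gave 134 to 367. With library weights 331 were called higher and 38 lower. Apical library 4 was also left out of the 3-region fit (40 calls) and of the compared regions alone (7 calls). Fits with the replicate number as a block gave 402 calls over all regions, and limma called 0 in the compared regions alone, with 1533 at an unadjusted p under 0.05, or 0 and 2331 without Apical library 4. The numbers were not taken to pair the libraries: deviations of the same number correlated at 0.253, 0.354, 0.308 and -0.02 between Basal and Apical, where only replicates 1 to 3 correlated best with their own number. Between Petiole and Basal they correlated at 0.151, 0.210, 0.297 and 0.0906, and there each library correlated best with its own number, a hint from the data and not from the design. Among 31 named transcripts, no direction reversed in any of 21 alternatives each, and 209 of those 651 values missed the threshold, with 0 of the 31 called in the compared regions alone and 15 in the 3-region fit. The count for Petiole against Basal, and that of raised transcripts higher in Petiole, stayed within 1.5 times under each alternative run. The excess of detected transcripts in Basal was 363, or 150.0 at a minimum of 5 TPM and 233 to 458.5 without 1 library. An exact permutation within pairs, by the replicate number as a block, gave p = 0.125, the smallest that 4 pairs allow. The exact permutation p rose to 0.0571 without any 1 Basal library, and was 0.0286 without any 1 Apical library. The groups did not overlap in either case, and 4 against 3 libraries allow only few values of p. The added alternatives, library weights and those without Apical library 4 beyond leaving it out of the fit of all regions, were chosen after seeing the data. Depth is unknown.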
